A study of Mus musculus with 6 samples.

Results

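The heterogeneous nuclear ribonucleoproteins (hnRNPs) and the SR proteins are the main families of RNA-binding regulators of splicing, and their messenger RNAs were followed here in retinas of DBA/2J mice. Members were all probe sets (groups of array probes read together for a transcript) that the platform annotation ties to exactly 1 gene whose symbol begins with Hnrnp or Srsf, or their older forms Hnrp and Sfrs. This gave 29 of the 18193 genes named on the array, 19 for hnRNPs and 10 for SR proteins, read by 58 and 33 probe sets, 91 of 45037 in all. Of these, 84 probe sets passed the filter on low values, 53 for hnRNP and 31 for SR genes, and each of the 29 genes kept at least 1. A further 7 probe sets, which the annotation shares between Hnrnpa1 or Hnrnpa3 and other genes, were left out because their gene could not be settled.

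DBA/2J is an inbred strain that develops raised eye pressure and glaucoma with age. The arrays compared 3 retinas of female DBA/2J mice at 3 months, with normal pressure, with 3 retinas of female DBA/2J mice at 8 months, with elevated pressure, each retina from a different animal and on its own array. Throughout, values are listed for retinas 1, 2 and 3 of an age in that order. The last pressure measured before sampling was 19.1, 15.3 and 18.2 mmHg at 3 months against 25.3, 26.5 and 30.4 mmHg at 8 months. Age and pressure therefore cannot be told apart, no strain without glaucoma was on these arrays, and both right eyes were at 8 months.

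SR proteins carry RNA-recognition domains and a tail rich in arginine and serine, bind exonic enhancers and mostly favour the inclusion of exons. The hnRNPs coat nascent transcripts, and many of them act on the other side, by masking splice sites. SR proteins are switched by kinases of the SRPK and CLK families, and genes of both families commonly control their own level through alternative exons that send the transcript to nonsense-mediated decay, so probe sets of the same gene can read different transcripts. Neurons, photoreceptors included, use many tissue-specific exons, and inherited defects of core splicing proteins such as PRPF8 cause retinal degeneration in people.

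Promoter sequences are shown for 3 genes whose kept probe sets all lay higher at 8 months: the hnRNP gene Hnrnpa2b1 and the SR protein genes Srsf1 and Srsf10. They come from RefSeq (GRCm38.p6), run 5′ to 3′ on the gene's strand from 250 bases before the start of the transcript to 50 after it, and carry in capitals each match, on either strand, to CCAAT (the CCAAT box), to GGGCGG (a GC box) or to TGACGT (the core of a cyclic AMP response element). The Hnrnpa2b1 window is chr6:51469845-51470144 (minus strand), that of Srsf1 chr11:88047123-88047422 (plus strand) and that of Srsf10 chr4:135855821-135856120 (plus strand).
Hnrnpa2b1: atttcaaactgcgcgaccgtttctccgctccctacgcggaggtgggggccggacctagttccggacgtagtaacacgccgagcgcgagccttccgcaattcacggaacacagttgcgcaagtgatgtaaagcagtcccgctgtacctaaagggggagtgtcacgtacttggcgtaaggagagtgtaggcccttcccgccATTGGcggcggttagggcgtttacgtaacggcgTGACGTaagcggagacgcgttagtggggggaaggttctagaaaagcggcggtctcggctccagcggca
Srsf1: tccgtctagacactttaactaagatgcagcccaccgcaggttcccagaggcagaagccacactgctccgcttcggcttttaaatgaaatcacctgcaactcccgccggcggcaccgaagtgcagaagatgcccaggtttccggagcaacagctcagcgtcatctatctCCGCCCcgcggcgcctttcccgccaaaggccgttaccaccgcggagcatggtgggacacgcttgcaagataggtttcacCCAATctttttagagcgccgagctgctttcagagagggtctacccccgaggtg
Srsf10: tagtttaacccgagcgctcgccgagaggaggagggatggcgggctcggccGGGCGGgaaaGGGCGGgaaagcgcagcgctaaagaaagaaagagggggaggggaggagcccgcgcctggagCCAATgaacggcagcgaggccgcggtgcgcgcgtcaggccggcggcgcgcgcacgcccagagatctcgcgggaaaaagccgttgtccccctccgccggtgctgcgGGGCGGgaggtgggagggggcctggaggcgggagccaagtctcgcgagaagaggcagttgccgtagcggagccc
All 3 windows hold CCAAT, Srsf1 and Srsf10 also hold GGGCGG, and Hnrnpa2b1 holds TGACGT. For 27 of the 29 genes there were 39 windows, and some windows of the same gene overlap, as in Hnrnpa2b1, Hnrnph1 and Srsf4. GGGCGG occurred in 32 of them (82.1%), against 35.7% of all 32851 windows of the same length, CCAAT in 20 (51.3% against 37.4%), TGACGT in 8 (20.5% against 7.51%) and TATAAA in 4 (10.3% against 13.6%). The windows of these genes were also richer in G and C, with a median of 68.3% against 52.7%. They held more CG pairs too, with a median of 31 against 7 in a window. How often that composition alone would give GGGCGG, or TGACGT with its CG, was not computed. These matches describe the sequence and say nothing of binding.

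The levels are log2 values made by GCRMA, a method that models probe background and summarises each probe set. A value reports a probe set against itself across retinas, and levels of different probe sets are not compared. Probe sets whose names end in _a_at can read several transcripts of a gene, and those in _s_at or _x_at also related sequences, which bears on close copies such as Hnrnpa1 and its pseudogenes or Hnrnph1 and Hnrnph2. Cells of a type that became fewer and RNA that fell within each cell cannot be told apart in whole retinas. Markers of rods, of bipolar, amacrine and horizontal cells, of Müller glia and of ganglion cells were all above the filter, and the average of each of these lists separated the ages by a small margin. Rod markers averaged 11.57 to 11.68 at 3 months and 11.50 to 11.56 at 8 months, and ganglion cell markers 8.73 to 8.87 and 8.66 to 8.68. Bipolar, amacrine and horizontal cell markers averaged 8.08 to 8.18 and then 8.21 to 8.27, and Müller glia markers 10.75 to 10.90 and then 10.91 to 11.09. Not every marker followed its list. The rod marker Gnat1 differed by 0.08, the ganglion cell marker Rbpms by 0.05 and Slc32a1 of the bipolar, amacrine and horizontal list by -0.23. By contrast, 0 of 5 muscle and 0 of the 2 blood markers found passed the filter. The measured lists held 6 of 7 rod markers and 5 markers of each other retinal list. Lens markers averaged 10.05 in 3-month retina 3 and 8.67 in 8-month retina 1 but between 3.85 and 5.36 in the others, and pigment epithelium markers ranged from 5.13 to 6.80 with ages overlapping. Microglia markers averaged 4.76 to 4.77 at 3 months and 5.13 to 5.21 at 8 months. Of these 8 markers 5 passed the filter, and the average includes those that did not. C1qb, Lyz2 and Ctss differed by 1.05, 0.73 and 0.65, but Csf1r by only 0.08. The part of any of these cells in the values below was not tested.

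Over the hnRNP and SR probe sets, the retina labelled 3-month retina 2 stood apart from the other younger ones. It was the highest of the younger retinas in 48 of the 84 hnRNP and SR probe sets (57.1%), against 29.6% of all kept probe sets. Over the whole array its Pearson correlation was 0.990 and 0.988 with 3-month retinas 1 and 3. With 8-month retinas 1, 2 and 3 it was 0.989, 0.992 and 0.994, so retinas 2 and 3 of that age exceeded both values for its own age. By comparison, 3-month retina 1 correlated most with 3-month retina 2. It correlated more with 8-month retinas 2 and 3 (0.988 and 0.989) than with 3-month retina 3 (0.987). For 3-month retina 3 the correlation was 0.988 with both 3-month retina 2 and 8-month retina 1. The 3' minus 5' signal of the Gapdh control probes, a measure of RNA integrity, was 0.71, 0.75 and 0.73 at 3 months against 0.81, 0.76 and 0.77 at 8 months. On that measure too 3-month retina 2 lay nearest the older retinas, whereas for the actin control the values of 1.62 to 1.87 overlapped between ages, and the part of RNA integrity in the results was not tested. Counts are given with and without this retina. Differences without it are given for each named probe set whose difference it moved by over 1.5 times, and for some others. The retina was singled out by the values of these same probe sets. Leaving it out therefore tends to widen their differences by construction. The fits without it describe its weight and lend no support to a difference between the ages.

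Most hnRNP and SR probe sets read slightly higher at 8 months, while most probe sets on the array read slightly lower. The log2 difference was above 0 in 34 of 53 hnRNP probe sets and 24 of 31 SR probe sets, 69.0% together, against 40.6% of all kept probe sets. Its median was 0.08 for hnRNP and 0.15 for SR probe sets, against -0.04 over all 20973. With 1 probe set for each gene, the brightest, 20 of 29 genes lay above 0 (69.0% against 36.5% of 11219 genes), and the medians were 0.09, 0.08 and -0.06.

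No hnRNP or SR probe set passed the test over the whole array (limma, Benjamini-Hochberg adjusted, 0 of 84; the smallest adjusted p was 0.252). Over all kept probe sets 1 passed, or 0.00477%. With no adjustment, 9 hnRNP and 5 SR probe sets had a limma p under 0.05 and were higher at 8 months, 14 of 84 or 16.7%, against 4.63% of all kept probe sets. Only 2 were lower, both of Hnrnpf (2.38% against 10.3%). Several probe sets of 1 gene can enter these counts. With the brightest probe set of each gene, 4 of 29 genes were higher at unadjusted p under 0.05 (limma; 13.8% against 3.58% of 11219 genes). In that count 0 were lower (against 11.5%). Counted in either direction the members' 16 of 84 (19.0%) lay close to the 14.9% of the whole array, whereas the share higher lay above that of the array and the share lower below it. The ages did not overlap, with the older retinas higher, in 21 of 84 (25% against 6.89%) and, with them lower, in 8 (9.52% against 14.9%), which makes 29 in all (34.5% against 21.8%). After quantile normalization, which evens out the array-wide balance, 18 members were higher at unadjusted p under 0.05 (21.4% against 6.62%) and 2 lower (2.38% against 6.69%). In a pair of other settings the excess of higher members at unadjusted p under 0.05 was absent. With eye side as a covariate, which leaves 8-month retina 1 alone to set against the younger left eyes, 1 of 84 was higher (1.19% against 3.41%) and 2 lower (2.38% against 6.4%). Without 8-month retina 1 and 3-month retina 3, the retinas with high lens markers, 1 of 84 was higher (1.19% against 2.47%) and 0 lower (against 5%). In that setting, with fewer retinas, the ages did not overlap in 39 of 84, counted in either direction (46.4% against 39.9%).

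**Figure D1:**
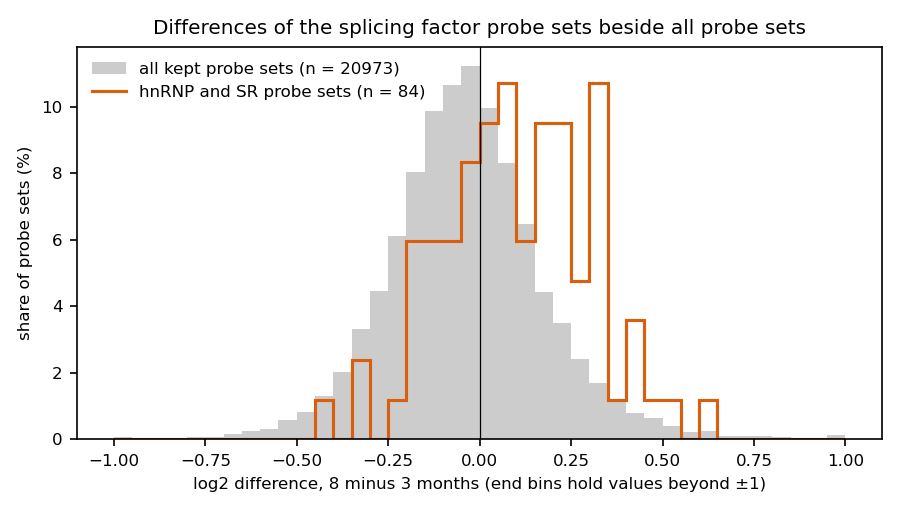
Share of probe sets (vertical axis, percent) by log2 difference between 8 and 3 months (horizontal axis, bins of 0.05) for the 84 hnRNP and SR probe sets (orange line) and all 20973 kept probe sets (grey). The orange outline sits to the right of the grey one, with medians of 0.09 and -0.04.

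Without 3-month retina 2 the counts at unadjusted p under 0.05 were 18 hnRNP and 13 SR probe sets higher and 4 and 0 lower, so 31 of 84 were higher (36.9% against 6.94% of all kept probe sets) and 4 lower (4.76% against 12.6%). The ages then did not overlap in 45 probe sets with the older retinas higher (53.6% against 13.7%) and in 12 with them lower (14.3% against 26.1%). Still 0 of 84 passed after adjustment (limma adjusted p of 0.0985 at the lowest), as did 0% of the whole array. Leaving out any other retina gave fewer that were higher than the 14 with all retinas. Without 3-month retina 3 only 1 hnRNP and 2 SR probe sets were higher and 1 hnRNP probe set lower, beside 3.27% and 7.82% of the whole array, so the share higher (3.57%) was then that of the array. Without 3-month retina 1, 3 and 4 were higher and 1 hnRNP probe set lower (4.2% and 8.01% of the array). Without 8-month retina 1 the counts were 6 and 5 higher and 2 hnRNP lower (3.06% and 6.77%), without 8-month retina 2 they were 4 and 3 higher and 2 hnRNP and 1 SR lower (2.84% and 6.37%), and without 8-month retina 3 they were 4 and 2 higher and 1 hnRNP lower (3.76% and 8.71%).

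The place of each retina was plain in the medians of each array. The median deviation of the 53 hnRNP probe sets from their own 6-array means was -0.04, 0.04 and -0.10 at 3 months against 0.02, 0.03 and 0.09 at 8 months. For the 31 SR probe sets it was -0.10, 0.03 and -0.13 at 3 months and 0.07, 0.07 and 0.06 at 8 months. The SR medians of the ages did not overlap, whereas for hnRNP 3-month retina 2 lay above 8-month retinas 1 and 2. Over all kept probe sets the medians were 0.036, 0.002 and 0.011 at 3 months and -0.022, -0.020 and -0.015 at 8 months. Those did not overlap either, with the older retinas lower.

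**Figure D2:**
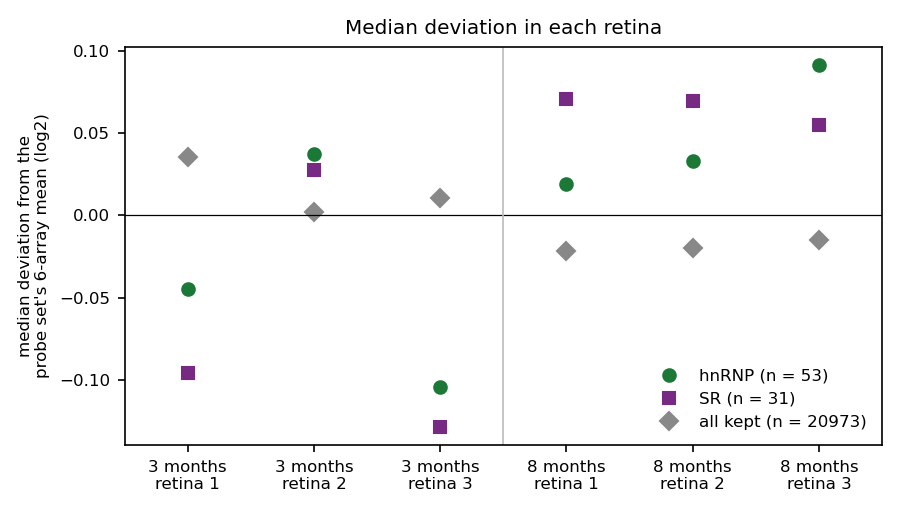
Median deviation (log2, vertical axis) of hnRNP, SR and all kept probe sets from each probe set's mean over the 6 arrays, for each retina. In 3-month retinas 1 and 3 hnRNP and SR medians lie between -0.13 and -0.04, below all other retinas, and 3-month retina 2 sits at 0.04 and 0.03.

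Among the hnRNP A/B genes Hnrnpa2b1, whose product represses exons and sorts messages for transport in neurites, was the most even. All 4 of its probe sets were higher at 8 months, by 0.30 to 0.43, with no overlap of the ages in any. The brightest, 1433829_a_at, read 11.57, 12.08 and 11.63 at 3 months and 12.17, 12.15 and 12.24 at 8 months. The older retinas lay close to each other, and retina 2 of the younger ones was close under them. The difference was 0.43 ± 0.14 (SE), 1.34-fold, which did not pass (limma adjusted p = 0.278), and it was 0.59 ± 0.08 without 3-month retina 2 (limma adjusted p = 0.0985).

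Hnrnpa1, a close relative that promotes exon skipping, was read in discord by its 3 probe sets. The dimmest, 1455740_at, stood at 7.12, 7.82 and 7.31 at 3 months and at 7.89, 7.86 and 8.06 at 8 months, a difference of 0.52 ± 0.18 (SE) with no overlap (limma adjusted p = 0.281), and 0.72 ± 0.11 without 3-month retina 2 (limma adjusted p = 0.0991). Probe set 1436549_a_at gave 9.47, 9.88 and 9.55 against 9.74, 9.87 and 9.92, a difference of 0.21 with overlap and 0.33 without 3-month retina 2. The brightest, 1455305_x_at, was level at 10.15, 10.10 and 10.08 against 10.12, 10.11 and 9.93, a difference of -0.05. Hnrnpa0, of the same subfamily, differed by -0.05 ± 0.07 (SE) with the older retinas just below the younger ones. Hnrnpab, a CArG-box binding member, was lower in 5 of 6 probe sets, by 0.09 to 0.19, with all ages overlapping.

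Hnrnpc, which binds uridine tracts and guards against cryptic exons, was higher in both probe sets. The brighter, 1460240_a_at, read 10.45, 10.46 and 9.98 at 3 months and 10.65, 10.53 and 10.62 at 8 months, so that the ages were apart but 3-month retina 3 carried most of the gap. The difference was 0.30 ± 0.14 (SE; limma adjusted p = 0.364). Hnrnpd (AUF1), a regulator of AU-rich messages, differed by -0.04 to 0.14 over 3 probe sets, all with overlap.

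Hnrnpdl, a relative of Hnrnpd, had the most probe sets, and its 7 kept ones pointed both ways. Lower at 8 months without overlap were 1449039_a_at, at 9.77, 9.57 and 10.09 against 9.48, 9.49 and 9.52, and 1420093_s_at, at 10.77, 10.77 and 10.95 against 10.65, 10.60 and 10.67. Their differences were -0.31 ± 0.13 and -0.19 ± 0.09 (SE; limma adjusted p = 0.341 and 0.354). Higher without overlap was 1428225_s_at, at 6.44, 6.47 and 6.14 against 6.68, 6.54 and 6.59, a difference of 0.25 ± 0.11 (SE; limma adjusted p = 0.350). The other 4 lay higher by 0.06 to 0.32 with overlap, and in each of them 3-month retina 2 was the highest younger retina. In 1424252_at, with 9.64, 10.10 and 9.72 against 9.84, 10.30 and 10.26, and in 1424251_a_at, with 10.76, 11.02 and 10.81 against 10.85, 11.14 and 11.24, 8-month retina 1 was the lowest older one. Probe sets 1456698_s_at, at 10.77, 11.27 and 11.16 against 11.08, 11.08 and 11.28, and 1428224_at, at 7.29, 7.89 and 7.44 against 7.62, 7.49 and 7.69, showed no order of the ages. Without 3-month retina 2 these last probe sets differed by 0.18 and 0.23.

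In the F/H group, whose products bind runs of G, Hnrnph1 had the largest difference of any member. Its probe set 1437267_x_at read 9.22, 10.07 and 9.32 at 3 months and 10.15, 10.21 and 10.17 at 8 months. The older retinas were nearly identical, 3-month retina 2 was almost at their level, and the other younger retinas were far below. The difference was 0.64 ± 0.22 (SE), 1.56-fold (limma adjusted p = 0.278), and 0.91 ± 0.08 without 3-month retina 2 (limma adjusted p = 0.0985). The brighter probe set of the gene, 1415872_at, gave 11.12, 11.16 and 11.11 against 11.28, 11.31 and 11.29. There each age was tight and the ages were apart, but by only 0.16 ± 0.07 (SE; limma adjusted p = 0.352).

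Hnrnph2, the X-linked copy of the same type, had 10.53, 10.98 and 10.66 at 3 months and 11.03, 11.01 and 11.04 at 8 months. It differed by 0.30 ± 0.12 (SE; limma adjusted p = 0.321), again with 3-month retina 2 just under the older ones, and by 0.43 ± 0.08 without it (limma adjusted p = 0.108). Hnrnph3 differed by 0.10 with overlap.

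Hnrnpf showed the opposite in part and held the lowest value of all members. Probe set 1450963_at read 8.36, 8.00 and 8.38 at 3 months and 7.90, 7.91 and 7.63 at 8 months, and 1423382_a_at read 8.19, 8.09 and 8.18 against 7.88, 7.94 and 7.68. Both had the older retinas below all younger ones, with differences of -0.43 ± 0.14 and -0.32 ± 0.09 (SE; limma adjusted p = 0.269 and 0.258). The brighter pair did not follow. Probe set 1456664_x_at gave 11.02, 11.03 and 10.94 against 11.14, 11.01 and 11.05, and 1437099_x_at gave 10.77, 10.88 and 10.55 against 10.98, 10.87 and 10.81, with differences of 0.07 and 0.15 and overlapping ages. In 1450963_at 3-month retina 2 was again the younger retina nearest to the older ones, and the difference was -0.55 ± 0.11 without it (limma adjusted p = 0.116).

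**Figure D3:**
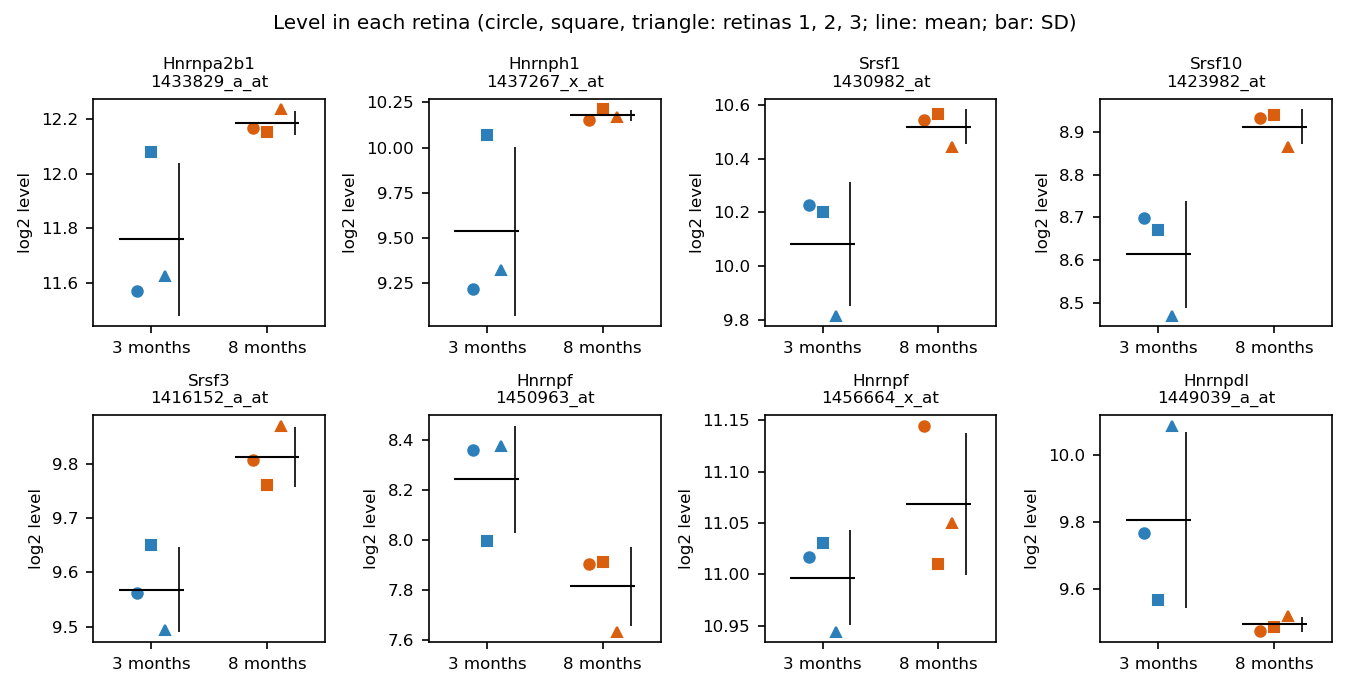
Log2 level (vertical axis, each panel on its own scale) in each retina at 3 months (blue) and 8 months (orange) for 8 probe sets of Hnrnpa2b1, Hnrnph1, Srsf1, Srsf10, Srsf3, Hnrnpf and Hnrnpdl, with the mean (line) and SD (bar) of 3 retinas. In Hnrnpa2b1 and Hnrnph1 the square of 3-month retina 2 (12.08 and 10.07) lies near the older retinas, just below them, whereas in Srsf1 1430982_at and Srsf10 1423982_at it lies beside 3-month retina 1.

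Hnrnpu, the scaffold attachment factor of the nuclear matrix, was higher in all 5 probe sets, by 0.03 to 0.44. Its brightest, 1423050_s_at, read 12.84, 12.99 and 12.80 at 3 months and 13.04, 13.04 and 13.05 at 8 months, a difference of 0.17 ± 0.08 (SE; limma adjusted p = 0.388) with no overlap. Hnrnpr, a neuronal transport and splicing factor, split into 2 probe sets higher and 2 lower. Its brightest, 1437526_x_at, read 9.65, 10.43 and 9.74 at 3 months and 10.41, 10.37 and 10.54 at 8 months. There 3-month retina 2 lay above 8-month retinas 1 and 2, and the difference of 0.50 ± 0.20 (SE; limma adjusted p = 0.320) became 0.74 ± 0.09 without it (limma adjusted p = 0.0985).

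Hnrnpm, which binds GU-rich sites, read 7.80, 7.75 and 7.66 at 3 months and 7.91, 7.80 and 7.97 at 8 months, a difference of 0.16 ± 0.09 (SE; limma adjusted p = 0.421). Hnrnpl, a binder of CA repeats, went the other way at 5.71, 5.69 and 5.70 against 5.63, 5.61 and 5.55, a difference of -0.10 ± 0.07 (SE; limma adjusted p = 0.518). In both the ages were apart by little. Hnrnpk, a C-tract binding factor and among the most widely expressed hnRNPs, was level, at 0.04 to 0.09 over 3 probe sets. Hnrnpll, a relative of Hnrnpl, differed by -0.05 and -0.02, Hnrnpul1 by 0.09 and Hnrnpul2 by -0.02 and -0.17, where only the brighter Hnrnpll probe set had ages apart.

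Of the SR genes, Srsf1, the founding member of the family, was higher at 8 months in all 6 kept probe sets, by 0.17 to 0.44. Probe set 1430982_at held the family's largest difference and the smallest p of any member. It read 10.23, 10.20 and 9.81 at 3 months and 10.55, 10.57 and 10.44 at 8 months, so that all younger retinas, retina 2 included, lay below the older ones. The difference was 0.44 ± 0.13 (SE), 1.36-fold (limma unadjusted p = 0.0101, adjusted p = 0.252), and 0.50 ± 0.14 without 3-month retina 2. Probe set 1434972_x_at, at 11.97, 12.27 and 11.93 against 12.31, 12.31 and 12.42, was also apart, by 0.29 ± 0.11 (SE; limma adjusted p = 0.305).

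In the other Srsf1 probe sets 3-month retina 2 reached the level of the older retinas. The brightest, 1453722_s_at, gave 12.82, 12.98 and 12.79 against 12.97, 13.06 and 13.06, and 1428099_a_at gave 11.55, 11.99 and 11.64 against 11.95, 12.02 and 12.03. Their differences were 0.17 ± 0.09 and 0.28 ± 0.12 (SE; limma adjusted p = 0.404 and 0.350). Probe set 1452430_s_at read 8.99, 9.63 and 9.01 against 9.44, 9.57 and 9.58, and 1428100_at read 8.63, 9.17 and 8.50 against 9.08, 8.92 and 9.24. These differed by 0.32 and 0.31, and by 0.53 and 0.52 without 3-month retina 2, which was the highest retina of all in the first of them.

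Srsf10, which becomes a splicing repressor when dephosphorylated, was higher in all 4 probe sets, by 0.04 to 0.30. Its brightest, 1423982_at, read 8.70, 8.67 and 8.47 at 3 months and 8.93, 8.94 and 8.87 at 8 months, a difference of 0.30 ± 0.09 (SE), 1.23-fold (limma adjusted p = 0.262). The ages were apart with 3-month retina 2 in place, and without it the value was 0.33 ± 0.10. Srsf2 (SC35), a protein of nuclear speckles, was likewise higher in all 4 probe sets, by 0.14 to 0.23. The ages were apart in the 2 probe sets that read below 6. The limma adjusted p of Srsf2 was no lower than 0.362.

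Srsf3, the smallest of the family and an export adaptor, had 1 of 5 probe sets with ages apart. That was 1416152_a_at, at 9.56, 9.65 and 9.49 against 9.81, 9.76 and 9.87, a difference of 0.24 ± 0.08 (SE; limma adjusted p = 0.278). Its brightest, 1416150_a_at, was level at 11.91, 11.94 and 11.94 against 11.94, 11.94 and 11.97. Likewise with overlap, 1454993_a_at gave 10.22, 10.02 and 10.12 against 10.23, 10.16 and 10.20. Probe set 1416151_at gave 9.42, 9.54 and 9.55 against 9.69, 9.54 and 9.47, and 1434512_x_at gave 10.07, 9.83 and 9.92 against 9.92, 9.87 and 9.93. The differences of these 4 lay between -0.03 and 0.08, and without 3-month retina 2 those of 1454993_a_at and 1434512_x_at were 0.03 and -0.08.

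Srsf5 read 11.92, 12.10 and 11.81 at 3 months and 12.07, 12.09 and 12.12 at 8 months, a difference of 0.15 ± 0.09 (SE; limma adjusted p = 0.489), and of 0.22 without 3-month retina 2. Srsf6, a regulator of tau exons among others, differed by -0.04 to 0.31 over 4 probe sets, all with overlap. Srsf11, an atypical member, had 4 probe sets on both sides. Its brightest, 1452371_at, was apart by 0.16 ± 0.10 (SE) at 7.51, 7.77 and 7.75 against 7.87, 7.83 and 7.81 (limma adjusted p = 0.461), while 1427269_at gave 7.44, 7.55 and 7.74 against 7.16, 7.46 and 7.56, a difference of -0.18. The others lay near the filter, 1430077_at at 4.05, 4.49 and 4.02 against 4.71, 4.06 and 3.86 and 1439095_at at 4.36, 3.96 and 3.90 against 4.12, 4.14 and 3.90. Their differences of 0.03 and -0.02 were 0.18 and -0.08 without 3-month retina 2.

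The 3 SR genes Srsf4, Srsf9 and Srsf12 were each read by 1 probe set and lay below 0. Srsf4, the longest of the classical SR proteins, stood at 6.47, 6.35 and 6.45 at 3 months and at 6.13, 6.44 and 6.10 at 8 months. Its difference of -0.20 ± 0.11 (SE; limma adjusted p = 0.423) was the family's lowest, and 8-month retina 2 overlapped the younger ones. Srsf9 read 8.04, 8.06 and 7.97 against 7.95, 7.87 and 7.86, apart by -0.13 ± 0.08 (SE; limma adjusted p = 0.439). Srsf12, a relative of Srsf10, differed by -0.11 with overlap.

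**Figure D4:**
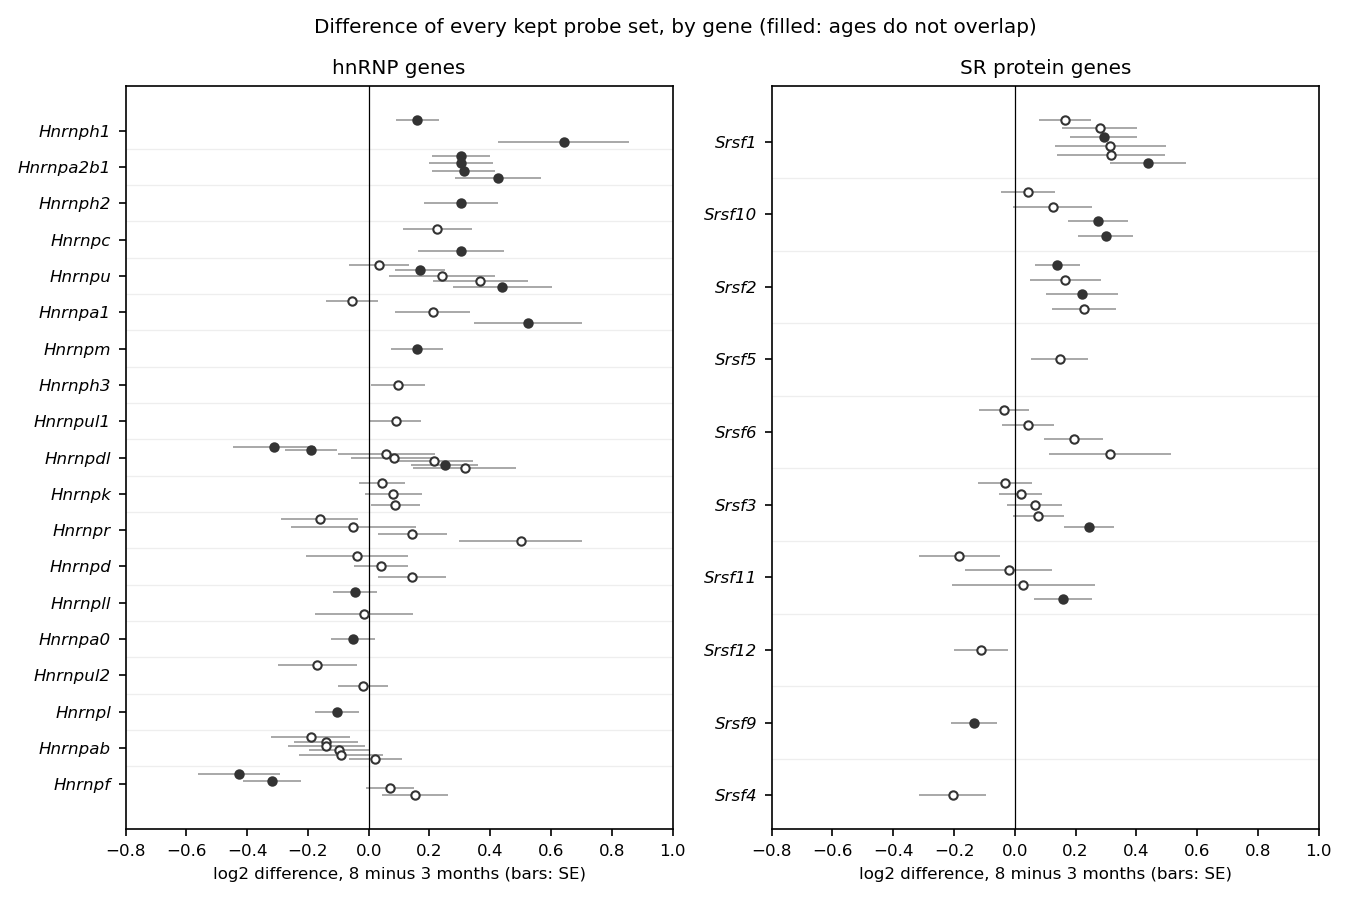
Log2 difference between 8 and 3 months (horizontal axis, bars are SE) of each of the 84 kept probe sets, grouped by gene in the order of the gene's median, with hnRNP genes on the left and SR protein genes on the right. Filled points have ages that do not overlap. Hnrnpa2b1 has 4 filled points above 0, whereas Hnrnpf has 2 filled points below 0 beside 2 open ones above it.

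Probe sets of the same gene were compared in 19 member genes with 2 or more kept. Their differences had the same sign in 10 of them (52.6%), against 49.5% of the 4574 such genes on the array. In 8 genes all probe sets were higher: Hnrnpa2b1, Hnrnpc, Hnrnph1, Hnrnpk, Hnrnpu, Srsf1, Srsf2 and Srsf10. In Hnrnpll and Hnrnpul2 all were lower. Of the 4574 genes on the array, all probe sets were higher in 751 and all were lower in 1511. Among genes with 4 or more kept probe sets, the share in accord was 5 of 12 (41.7%) for members and 23.5% of 633 genes on the array. Probe sets of a gene were read in the same retinas and can share probes, so their accord is no independent repeat.

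The gap between the highest and the lowest difference of a gene had a median of 0.27 in members, against 0.21 over all genes with 2 or more. Such a gap tends to widen with the number of probe sets. Among genes with 4 or more kept probe sets the median gap was smaller in members, at 0.31 against 0.36 on the array. The widest gaps of members were 0.66 in Hnrnpr, 0.63 in Hnrnpdl, 0.58 in Hnrnpf and 0.58 in Hnrnpa1. Hnrnpdl was the only member gene with ages apart in both directions (1 of 19, 5.26%, against 2.45% of all genes with 2 or more). Among genes with 4 or more kept probe sets the shares were close, at 8.33% of 12 members and 7.27% of 633 genes. Which transcript each probe set reads was not analysed here. The 7 probe sets below the filter, of Hnrnpab, Hnrnpc, Hnrnpk, Hnrnpl, Hnrnpr, Srsf1 and Srsf3, read between 2.29 and 4.08.

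Other genes of splicing were taken from lists fixed by name, with 1 probe set per gene, and 0 of their genes passed, as did 0.00891% of all genes (limma adjusted; counts at unadjusted p under 0.05 are given for each list). Over 11219 genes, 3.58% were higher and 11.5% lower at unadjusted p under 0.05. Core proteins of the small nuclear ribonucleoproteins, the machinery on which hnRNPs and SR proteins act, were listed together with U2af1, U2af2, Sf1 and Prpf19. This list leaned lower at 8 months, as most genes on the array did. Of 21 measured, 6 were above 0 (36.5% of all genes were), 0 were higher and 5 lower at unadjusted p under 0.05, and the median log2 difference was -0.14 against -0.06 over all genes. Sf3a1, a subunit of the branch-site complex, read 8.18, 8.09 and 8.36 at 3 months and 7.72, 7.70 and 7.63 at 8 months, a difference of -0.52 ± 0.09 (SE; limma adjusted p = 0.182). The Sm protein gene Snrpb differed by -0.46 ± 0.10 and Prpf8, at the catalytic centre, by -0.48 ± 0.14 (SE; limma adjusted p = 0.208 and 0.257), both with ages apart and with all 3 younger retinas above the older ones.

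Of 9 kinases and carriers of SR proteins, 0 were higher and 1 lower at unadjusted p under 0.05. That was Tnpo3, which imports SR proteins into the nucleus, at -0.26 ± 0.08 (SE; limma adjusted p = 0.263). The kinase genes Clk1 and Srpk2 differed by 0.20 ± 0.09 and 0.23 ± 0.10 (SE; limma adjusted p = 0.348 for both) with ages apart, and the list's median was 8.49e-04.

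Among 17 measured SR-related genes outside the name rule, 2 were higher and 0 lower at unadjusted p under 0.05, with a median of 0.05. They were Tra2a, an enhancer-binding partner of SR proteins, at 10.16, 10.41 and 9.80 against 10.64, 10.57 and 10.57, a difference of 0.47 ± 0.15 (SE), and Luc7l, a homologue of a yeast U1 factor, at 0.25 ± 0.08 (SE; limma adjusted p = 0.275 and 0.274). Son, a speckle scaffold, differed by 0.19 ± 0.09 (SE; limma adjusted p = 0.362). Of 19 hnRNP-related genes, 3 were higher and 4 lower at unadjusted p under 0.05, with a median of 0.03. Those of smallest p were the poly-C binding gene Pcbp4 at -0.28 ± 0.10, the cold-inducible Cirbp at -0.23 ± 0.09 and the polypyrimidine-tract binding Ptbp3 at 0.27 ± 0.11 (SE; limma adjusted p = 0.305, 0.305 and 0.316).

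Tissue-specific splicing regulators, of which 22 were measured, had 2 higher and 1 lower at unadjusted p under 0.05 and a median of -0.02. The neuronal genes Celf4 and Elavl3 differed by 0.30 ± 0.10 and 0.26 ± 0.11 and the epithelial regulator Esrp1 by -0.75 ± 0.24 (SE; limma adjusted p = 0.269, 0.325 and 0.272). Esrp1 read 7.22, 6.94 and 6.72 at 3 months and 6.64, 5.71 and 6.28 at 8 months, apart but with a wide spread among the older retinas. Of 7 measured genes of nonsense-mediated decay and the exon junction complex, 1 lay above 0, where 36.5% of all genes did, and 0 had an unadjusted p under 0.05, the median being -0.08. Rbm8a, Smg5 and Upf2 differed by -0.16, -0.16 and 0.10.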

How the data were processed

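RNA of 6 retinas was amplified from 20 ng, biotin-labelled and hybridised to Affymetrix mouse arrays, per the labels' protocols. The authors deposited 1 log2 value per probe set and array. The submitters' processing notes name GCRMA 1.1.0 and R 1.9.0, with no options, and the log2 scale was read from the values. GCRMA presses weak signals toward a floor, which understates differences of dim probe sets. From the 45101 probe sets, 64 controls were left out, and probe sets with at least 3 of 6 values at 4 or above stayed in, 20973 (46.6%). Members were named from the platform annotation, and all 91 matched RefSeq gene identifiers with 0 symbols changed. Ages were compared with limma 3.58.1 in R 4.3.3 (lmFit, eBayes, no covariate), two-sided. P-values were adjusted over those 20973 by the Benjamini-Hochberg method with a threshold of 0.05, and the fit was tested on simulated data. Fold changes are back-transformed log2 differences. With 3 retinas an age, 0.1 is the smallest two-sided p of an exact permutation test and none was run, and the number of arrays limits the precision.

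Members, lists and alternatives were chosen with earlier results of these data known. Values of each retina are given for the 8 hnRNP and 6 SR genes of smallest p (brightest probe set), the highest and lowest difference in each family, all probe sets of the gene with most of them, and those of genes whose probe sets disagree with ages apart in at least 1. From each list the 3 genes of smallest p were named. The alternatives were filters, scalings, eye side, a replicate block and left-out arrays or probe sets. The replicate numbers did not pair the retinas, which came from separate animals.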

Additional observations from a re-analysis of the deposited data

How the results depend on the processing

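In every alternative 0 hnRNP and 0 SR probe sets passed after adjustment (limma; smallest adjusted p from 0.0985 without 3-month retina 2 to 0.664 without 8-month retina 1 and 3-month retina 3), against 11 and 5 at unadjusted p under 0.05 with all arrays. The number past the threshold on the whole array was 1, and it was 0 with no filter, with the replicate block, with a term for eye side, and without 8-month retina 1 and 3-month retina 3 together. It was 2 with the filter at 6, after quantile normalization, after median centring and after cyclic loess, and 0 whenever 1 retina was left out.

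The count of hnRNP probe sets at unadjusted p under 0.05 was 18 of 53 after median centring (34% against 15% of all probe sets) and 12 with the replicate block (22.6% against 13%). It was 2 with eye side as a covariate (3.77% against 9.82%), 0 without the lens-rich 8-month retina 1 and 3-month retina 3 (against 7.47%), and 5 of 27 without _s_at, _x_at and _a_at probe sets (18.5% against 14.6%). For SR probe sets it was 8 with no filter (24.2% against 9.23%), 12 after median centring, 3 with the replicate block (9.68%), 1 with eye side (3.23%), 1 without both lens-rich retinas (3.23%) and 3 of 16 without _s_at, _x_at and _a_at probe sets (18.8%). Both families thus lay below the array with eye side and without the lens-rich retinas. Leaving out 1 retina gave 2 to 22 hnRNP and 2 to 13 SR probe sets, with 9.21% to 19.6% of the array. Ages were apart in 15 SR probe sets after median centring (48.4% against 23.7%), in 9 hnRNP probe sets without _s_at, _x_at and _a_at probe sets (33.3% against 21.3%), and in 21 to 37 hnRNP and 9 to 20 SR probe sets with 1 retina left out (29.2% to 39.8% of the array). The causes of these changes were not tested.

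The hnRNP and SR medians stayed above 0 in all alternatives. They were 0.17 and 0.23 after median centring, and the SR median was 0.055 without _s_at, _x_at and _a_at probe sets and 0.084 with the brightest probe set of each gene. Leaving out 1 retina gave 0.06 to 0.14 for hnRNP and 0.12 to 0.20 for SR. The median over the whole array was -7.96e-04 with no filter, -0.058 with the filter at 6, -0.0052 after quantile normalization, 0.042 after median centring, -1.60e-03 after cyclic loess and -0.058 with 1 probe set per gene, and -0.05 to -0.03 with 1 retina left out. The count of genes in accord ranged from 9 to 12 with 1 retina left out.

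Of 602 differences recomputed for 42 probe sets, 583 kept their sign. The sign changed for Hnrnpa1 1455305_x_at (0.029 after median centring, 0.010 with eye side, -0.086 to 0.0067 with 1 retina left out), Hnrnpdl 1424251_a_at (-0.0086 with eye side), 1428224_at (-3.91e-03 without both lens-rich retinas, -0.068 to 0.23 with 1 left out) and 1456698_s_at (-0.065 to 0.18). It also changed for Srsf3 1434512_x_at (0.051 after median centring, 0.0067 after cyclic loess, -0.085 to 0.031 with 1 left out), and for Srsf11 1439095_at (0.063 and 0.049 after median centring and with eye side, -0.11 to 0.12), 1427269_at and 1430077_at (0.017 and -0.30 without both lens-rich retinas, the latter -0.22 to 0.20 with 1 left out). The replicate numbers share no animal, and the correlation of same-numbered deviations was -0.14, 0.06 and -0.28, so the block describes a number only.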
